A study of Mus musculus with 3 samples.

Results

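RNA polymerase II and the factors that start and release it were measured in CD4+ CD8+ double-positive (DP) thymocytes as 37 named genes. They were the 12 polymerase subunits, the general initiation factors, TFIIH, the kinase P-TEFb, and elongation or pausing factors. The genes were chosen by name and role, and a gene was represented by the probe set that carries its symbol alone on the array, the one with the highest mean where there were several. A probe set was found for 36 of the 37, out of 19938 genes on the array, and Gtf2h2, a TFIIH subunit, was not analysed here. The study hybridised 3 Affymetrix arrays with biotin-labelled material from total RNA, each from a separate cohort of wild-type C57BL/6 littermates aged 5 to 6 weeks whose thymocytes were sorted with CD8 and then CD4 beads. All 3 samples share strain, genotype, age and cell type, so the labels give 1 group and no second condition. The sources used here do not say how many mice a cohort pooled. The wider project mapped Ets1, Runx1, polymerase II and histone marks in Rag2-deficient thymocytes and E47 in DP cells, and the arrays give the expression side of the DP stage.

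RNA polymerase II transcribes all protein-coding genes. It is placed on a promoter by TBP and TFIIA, TFIIB, TFIIE and TFIIF, the DNA is opened by TFIIH, and the TFIIH kinase phosphorylates the repeated tail (CTD) of the largest subunit. Soon after initiation the enzyme is commonly held by DSIF and NELF, and P-TEFb phosphorylates these factors and the tail to release it into elongation. In T lineage cells this release step is well known for genes induced within minutes of receptor signalling.

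Every probe set has 1 log2 expression value for each array. As a limit of detection, the 95th percentile of the values of 78 genes typical of other organs was taken on each array, giving 7.35, 7.24 and 7.24 on arrays 1, 2 and 3, and a higher value is called above background. All 8 measured DP thymocyte markers lay above background on every array, with Rag1 at 13.39, 13.56 and 13.57, Rag2 at 8.69, 9.51 and 9.54, Cd4 at 11.59, 11.88 and 11.76 and Cd8a at 13.03, 13.27 and 13.26. Rag2 was the only one of the 8 that spanned 1.5-fold, with array 1 lowest. Markers of other cells were likewise counted where they lay above background on every array. The counts were 1 of 5 B cell, 2 of 9 myeloid and dendritic and 1 of 7 thymic epithelial genes. They were 0 of 3 erythroid, 2 of 5 endothelial and stromal and 1 of 4 NK cell genes. Those above throughout were Cd79b (8.73, 8.79 and 8.83), Cd74 (8.83, 7.27 and 8.05), H2-Ab1 (9.26, 7.91 and 8.50), Cldn4 (8.88, 9.06 and 9.03), Pecam1 (9.52, 9.44 and 9.51), Col1a1 (7.48, 7.50 and 7.53) and Gzma (8.61, 8.08 and 8.18). H2-Aa, Cd68 and Prf1 exceeded the limit on 2 arrays and Krt8 and Krt18 on array 3 alone. The defining genes Foxn1, Cd79a, Csf1r, Itgam, Itgax, Lyz2, Alas2, Slc4a1, Klf1 and Ncr1 were below it on every array. Array 1 stood apart from the others. Its Xist value was 11.65, against 5.40 and 5.68 on arrays 2 and 3, and the Y-linked Eif2s3y had 4.21, against 10.29 and 10.08, so by these genes array 1 differed from the others in the sex of the animals. Pearson's r over 28939 probe sets was 0.993 between array 1 and either other array and 0.996 between arrays 2 and 3. In whole-cell RNA of a sorted population, fewer cells that express a gene and less RNA per cell cannot be told apart. A probe set's level also depends on its probes, so no gene's level is set against another's below.

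The polymerase II machinery was expressed nearly completely in DP thymocytes. Of the 36 measured genes, 35 lay above background on all 3 arrays, while 42.4% of all genes did. The exception was Polr2k, which was above the limit on 2 arrays. Over the 36 genes the median of the 3-array means was 9.36, while it was 6.85 over all genes and 9.05 over the 8450 genes above background. The median of the list on single arrays was 9.36 ± 0.08 (mean ± SD, n = 3). The count was 36 of 36 on arrays 2 and 3 when array 1 was left out.

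**Figure D1:**
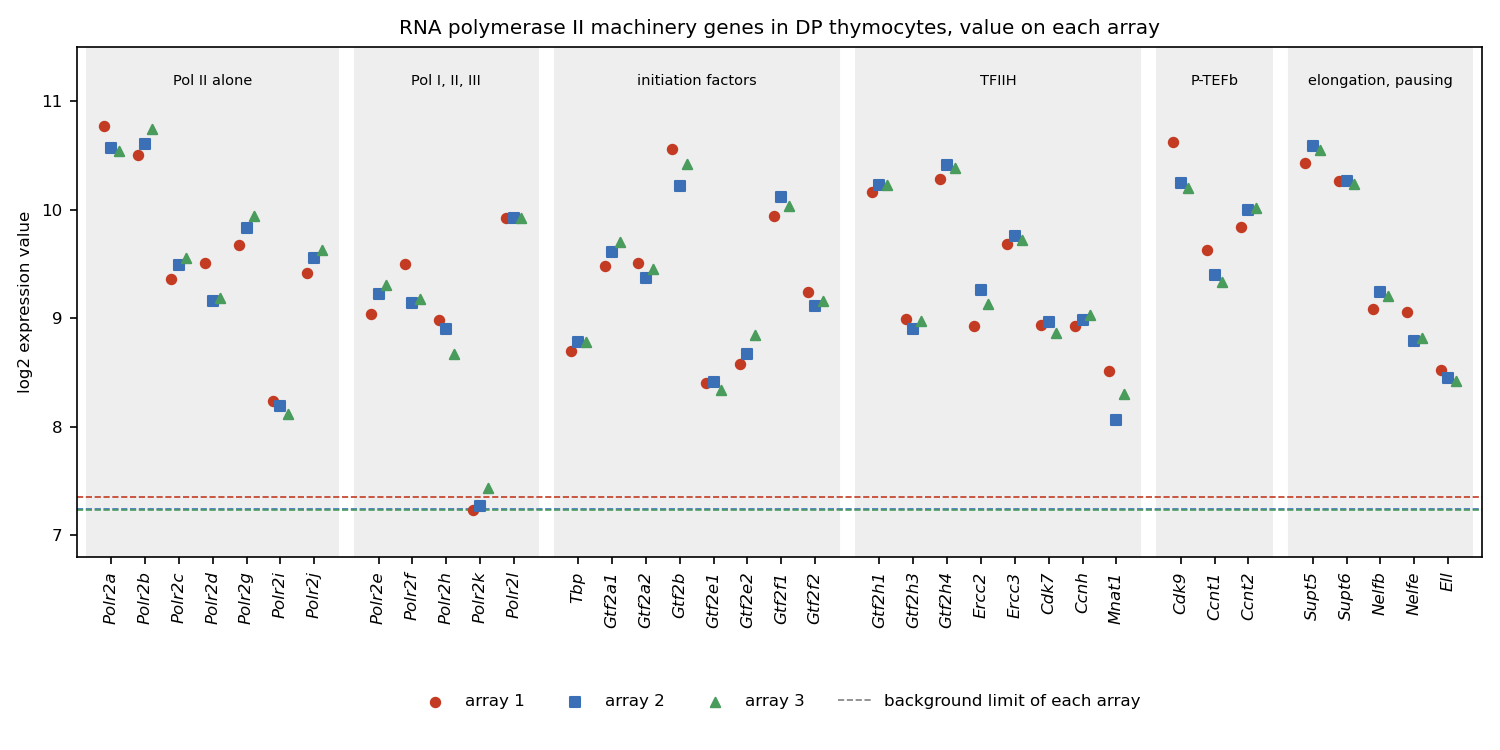
Log2 expression value (y axis) of the 36 measured genes on arrays 1, 2 and 3 (red circles, blue squares, green triangles), grouped by role, with each array's background limit as a dashed line (those of arrays 2 and 3 coincide at 7.24). All genes but Polr2k lie above the limits, and the 3 points of a gene lie within 0.45 log2 units.

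Between cohorts the 36 genes varied about as much as other genes above background. None spanned 1.5-fold or more from its lowest to its highest array, and 2.82% of genes above background did, a share so low that a count of 0 among 36 does not set the list apart. The widest spans were those of Mnat1 with 0.45, Cdk9 with 0.42 and Polr2f with 0.36 log2 units. A limma test of each probe set's variance over the arrays against a prior that follows the level called 0 of the 36 genes, with adjusted p values of 0.988 and above (Benjamini-Hochberg over 28939 probe sets), and called 0.0207% of all probe sets. At an unadjusted p under 0.05 it found 0 of the 36, against 4.66% of all probe sets, and the lowest unadjusted p among the 36 was 0.073 for Cdk9. The median SD over arrays was 0.10 for the 36 genes and 0.09 for all genes above background. The test says little about stability with 3 arrays: Fosb, an immediate-early gene with 9.40, 7.17 and 7.30 on arrays 1, 2 and 3, had an adjusted p of 0.218 (limma).

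The 12 polymerase II subunits comprise 7 that are found in polymerase II alone and 5 that are shared with polymerases I and III. Of the 12, 11 lay above background throughout. Polr2a, the largest subunit, which carries the CTD and most of the active site, had 10.77, 10.57 and 10.54 on arrays 1, 2 and 3. Polr2b, the second-largest subunit, which closes the active site from the other side, had 10.50, 10.61 and 10.74. These catalytic subunits thus ranked the arrays in opposite orders, with array 1 highest for Polr2a and lowest for Polr2b, over spans of 0.23 and 0.24. Polr2c and Polr2j, the pair on which the enzyme assembles, had 9.36, 9.49 and 9.55, and 9.42, 9.55 and 9.63. Both were lowest on array 1 and highest on array 3, for Polr2c by its main probe set only. The stalk subunits Polr2d and Polr2g, which form a pair that touches the emerging RNA, differed from each other in pattern. Polr2d had 9.51, 9.16 and 9.19 and Polr2g had 9.67, 9.83 and 9.94, so array 1 was highest for Polr2d and lowest for Polr2g. Polr2i, which aids transcript cleavage and fidelity, had 8.24, 8.19 and 8.12.

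Among the shared subunits, Polr2e had 9.04, 9.22 and 9.31 on arrays 1, 2 and 3, lowest on array 1. Polr2f had 9.50, 9.14 and 9.18, with array 1 highest. Polr2h had 8.98, 8.90 and 8.67, and Polr2l had 9.92 on every array. Polr2k, the smallest of the shared subunits and part of the same core, had 7.23, 7.27 and 7.43. It fell short of the limit by 0.12 on array 1 and exceeded it on arrays 2 and 3, so its detection turned on where the limit was set. It was above background on all arrays when the limit was the median of the other-organ genes plus 1 log2 unit. A shared subunit is used by all nuclear polymerases, so its level does not belong to polymerase II alone.

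A second probe set was present for 4 of the 36 genes. For Polr2c it read 8.37, 8.57 and 8.27 on arrays 1, 2 and 3, above background throughout. Array 2 was highest and array 3 lowest there, whereas the main probe set had array 3 highest and array 1 lowest. For Polr2h it read 8.54, 8.56 and 8.60, so that array 1 was the lowest there and the highest by the main probe set. For Polr2l it read 9.68, 9.70 and 9.64. For Cdk7 it read 6.84, 6.98 and 6.86, below background on every array, so the probe sets of Cdk7 disagree on detection. The array order of Polr2c and Polr2h is uncertain to that extent.

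All 8 general initiation factor genes lay above background on every array. Tbp, whose protein binds the TATA box and serves all nuclear polymerases, had 8.70, 8.78 and 8.78 on arrays 1, 2 and 3. The TFIIA genes Gtf2a1 and Gtf2a2, which steady TBP on DNA, had 9.48, 9.61 and 9.70, and 9.51, 9.37 and 9.45. Gtf2b, or TFIIB, the bridge between TBP and the polymerase, had 10.56, 10.22 and 10.42. It was the most variable of the 8 genes, with a span of 0.34 and array 2 lowest. The TFIIE genes Gtf2e1 and Gtf2e2, which bring in TFIIH, had 8.40, 8.41 and 8.34, and 8.58, 8.67 and 8.84. The TFIIF genes Gtf2f1 and Gtf2f2, which escort the polymerase to the promoter, had 9.94, 10.12 and 10.03, and 9.24, 9.11 and 9.16. The partners of TFIIA, TFIIE and TFIIF thus did not share their array order, over spans of at most 0.26.

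TFIIH opens the promoter and also acts in nucleotide excision repair, and all 8 of its measured genes lay above background. Ercc3, the translocase that melts promoter DNA, had 9.68, 9.76 and 9.72 on arrays 1, 2 and 3. Ercc2, the helicase needed mainly for repair, had 8.93, 9.26 and 9.13, lowest on array 1. The core subunit Gtf2h1 had 10.16, 10.23 and 10.23, Gtf2h3 had 8.99, 8.90 and 8.97, and Gtf2h4, which holds the translocase, had 10.28, 10.41 and 10.38. These last 3 genes spanned at most 0.13. The kinase module, which phosphorylates the CTD and also activates cell cycle kinases, consists of Cdk7 with 8.94, 8.96 and 8.86, its cyclin Ccnh with 8.93, 8.98 and 9.03, and the assembly factor Mnat1 with 8.51, 8.06 and 8.30. Cdk7 and Ccnh spanned 0.10 each, whereas Mnat1 had the widest span of the 36 genes, 1.37-fold, with array 2 lowest. A span at least as wide was found in 6.75% of genes above background.

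P-TEFb is a kinase, Cdk9, bound to a cyclin T, and all 3 of its genes lay above background. Cdk9 had 10.62, 10.25 and 10.20 on arrays 1, 2 and 3. Ccnt1, the main cyclin partner, had 9.63, 9.40 and 9.33. Both were highest on array 1, by 0.40 and 0.27 log2 units over the mean of arrays 2 and 3. Ccnt2, the alternative cyclin, had 9.84, 10.00 and 10.02 and was lowest on array 1, by 0.17. For Cdk9 a difference of this size or more, in either direction, was found in 6.62% of genes above background, for Ccnt1 in 18.0% and for Ccnt2 in 37.5%. Each of these differences kept its sign against array 2 alone and against array 3 alone, and with quantile normalization or median centring. None passed the variance test (adjusted p from 0.988).

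Related genes were described from a list of the 7SK complex, which holds P-TEFb inactive, and of the super elongation complex. Of the 9 measured genes of this list, 8 lay above background. Hexim1, whose protein inhibits P-TEFb within the 7SK particle, had 10.34, 9.87 and 9.62 on arrays 1, 2 and 3, a span of 0.72 and the only one past 1.5-fold among 74 related genes. Mepce, which caps 7SK RNA, had 10.13, 9.84 and 9.59. Larp7, which binds 7SK RNA, had 10.08, 10.04 and 10.19, and Aff1, a scaffold of the super elongation complex, had 11.16, 10.80 and 10.90. Hexim1, Mepce and Aff1 were highest on array 1, and Larp7 was not. Ell2, a stimulatory subunit of that complex, had 5.99, 5.56 and 6.04 and was below background on every array. Neither Hexim1 (unadjusted p = 0.0134) nor Mepce (unadjusted p = 0.0414) passed the variance test after adjustment (adjusted p = 0.988 for both).

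Array 1 was also the array with the highest immediate-early genes, which are induced within minutes of a stimulus and whose transcription is known to depend on P-TEFb. Of 14 such genes, 10 exceeded the limit on every array. The 14 were chosen with earlier results of these data known, in which array 1 stood apart, so their counts are descriptive only. Of the 14, 13 were highest on array 1, while 39.2% of genes above background were. Their mean log2 value was 9.53, 8.42 and 8.46 on arrays 1, 2 and 3. A span of 1.5-fold or more was found for 10 of 14, and for 2.82% of genes above background. Fos had 9.39, 7.86 and 8.27, and Jun had 11.01, 9.65 and 9.56. Fosb, Egr2, Ier3 and Atf3 fell short of the limit on at least 1 array. The myeloid and dendritic markers, with 2 of 9 above background throughout, had mean log2 values of 7.27, 6.59 and 6.96 on the same arrays, and their summed values on a linear scale were 2002, 999 and 1398. The antigen presentation genes Cd74, H2-Ab1 and H2-Aa (8.44, 6.75 and 7.81) were higher on array 1 than the mean of arrays 2 and 3 by 1.17, 1.05 and 1.16, and each of the other 6 genes differed by at most 0.32. H2-Aa was named after its values were seen. The DP markers had mean log2 values of 11.43, 11.70 and 11.67. The thymic epithelial markers, with 1 of 7 above background throughout, had summed values on a linear scale of 992.2, 1149.6 and 1277.8, so both lists were lowest on array 1. The part of these differences, and of the difference in sex, in the values of Cdk9, Ccnt1 and Hexim1 was not tested.

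**Figure D2:**
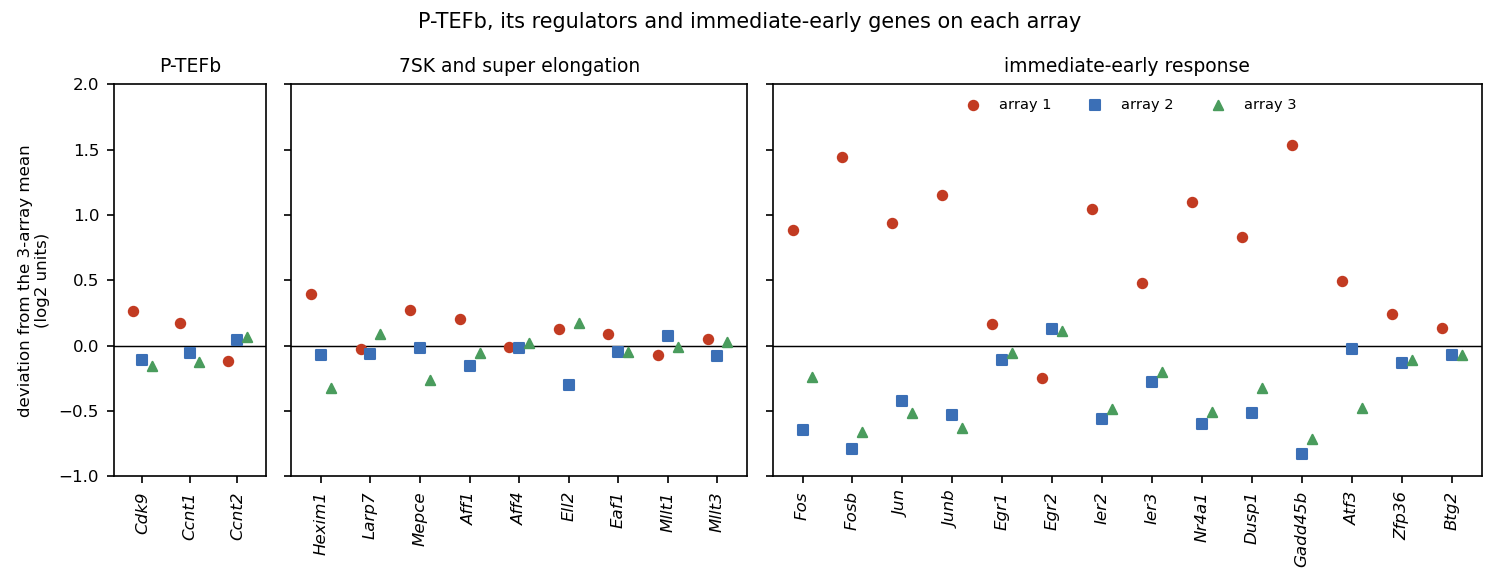
Deviation from each gene's own 3-array mean (y axis, log2 units) on arrays 1, 2 and 3 for P-TEFb genes, the 7SK and super elongation genes and the immediate-early genes. Cdk9 and Ccnt1 are highest and Ccnt2 lowest on array 1, and 13 of the 14 immediate-early genes are highest there by mostly larger amounts. Among genes above background 39.2% are highest on array 1.

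The promoter windows of the P-TEFb genes are shown because Cdk9 and Ccnt1 were highest and Ccnt2 lowest on array 1, and because the project mapped Ets1. Each is the 250 bases before the annotated start in RefSeq (build GRCm38.p6), written 5′ to 3′ on the strand of the gene, with capitals at the ETS core motif CCGGAAG on either strand. The windows are chr2:32712785-32713034 (minus strand), chr15:98567737-98567986 (minus strand) and chr1:127773914-127774163 (plus strand).
Cdk9: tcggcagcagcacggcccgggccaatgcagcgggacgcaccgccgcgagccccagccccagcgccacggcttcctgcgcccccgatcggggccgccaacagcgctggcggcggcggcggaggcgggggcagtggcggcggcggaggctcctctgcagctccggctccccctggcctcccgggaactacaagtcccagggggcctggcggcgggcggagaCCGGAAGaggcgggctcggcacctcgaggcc
Ccnt1: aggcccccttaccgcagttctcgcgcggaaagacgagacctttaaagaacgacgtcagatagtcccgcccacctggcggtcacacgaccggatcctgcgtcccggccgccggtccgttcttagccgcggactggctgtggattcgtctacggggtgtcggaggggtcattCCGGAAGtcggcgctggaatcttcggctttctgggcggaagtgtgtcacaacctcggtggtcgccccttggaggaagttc
Ccnt2: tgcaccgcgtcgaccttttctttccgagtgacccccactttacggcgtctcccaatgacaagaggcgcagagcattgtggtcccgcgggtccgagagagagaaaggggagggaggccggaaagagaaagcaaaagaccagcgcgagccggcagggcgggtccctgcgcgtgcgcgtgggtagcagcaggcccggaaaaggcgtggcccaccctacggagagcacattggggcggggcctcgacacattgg
The core was found once in the Cdk9 window and once in the Ccnt1 window. It was not found in the Ccnt2 window, which says only that these letters are not there. The Ccnt2 window does hold CCGGAAA, which differs from the searched letters in the last one alone. Measured genes with the core were found both higher and lower on array 1, as given below.

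Windows were available for 30 of the 37 genes, taking the first window that the table lists for a gene. Of these, 8 (26.7%) held CCGGAAG, in comparison with 16.7% of 6870 genes above background and 7.05% of all 27025 windows. Besides Cdk9 and Ccnt1 they were the windows of Cdk7, Gtf2a1, Gtf2f1, Gtf2h2, Polr2f and Polr2j. The value on array 1 minus the mean of arrays 2 and 3 was 0.34 for Polr2f and 0.03 for Cdk7. It was -0.175 for Gtf2a1, -0.135 for Gtf2f1 and -0.17 for Polr2j, so genes with the core went both ways. A relation of the motif to these differences was not tested. The TATA letters TATAAA, the sequence that TBP binds, were found in 5 of 30 (16.7%), in 5.49% of windows of genes above background and in 13.0% of all windows. The 5 were Gtf2a2, Gtf2f1, Nelfb, Polr2a and Polr2c. The RUNX core TGTGGT was found in 4 of 30 (13.3%), in 10.4% of genes above background and in 14.2% of all windows. The 4 were Ccnt2, Polr2c, Polr2f and Polr2l. All motifs were searched on both strands, and 0 matches in the 30 windows overlapped a match to another motif. The GC content of the 30 windows had a median of 60.8%, that of genes above background 60.4% and that of all windows 52.0%. A match is a description of the sequence, and no binding was measured by these arrays.

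All 5 elongation and pausing genes lay above background. Supt5, the large subunit of the pausing and elongation factor DSIF, had 10.43, 10.59 and 10.55 on arrays 1, 2 and 3. Supt6, a histone chaperone that travels with the polymerase, had 10.26, 10.26 and 10.24 and spanned 0.02. The NELF subunits Nelfb and Nelfe, which hold the paused polymerase, had 9.08, 9.24 and 9.20, and 9.06, 8.79 and 8.82. Array 1 was thus lowest for Nelfb and highest for Nelfe. Ell, which speeds elongation by suppressing short pauses, had 8.52, 8.45 and 8.42. The further NELF genes Nelfa (9.06, 9.17 and 9.20) and Nelfcd (8.93, 9.17 and 9.16), from the list of related genes, followed Nelfb, with array 1 lowest.

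Over the 36 genes, the differences of array 1 went both ways. The value on array 1 minus the mean of arrays 2 and 3 was above 0 for 17 genes, below 0 for 18 and 0 for Polr2l. Among genes above background it was above 0 for 48.7% and below 0 for 50.0%. Its mean over the 36 genes was 0.01 log2 units and its range -0.27 to 0.40, while over genes above background the mean was 0.01. Of the 36 genes 14 were highest on array 1, and 39.2% of genes above background were. On the low side, 18 of the 36 were lowest on array 1, and 40.2% of genes above background were. By role, the mean difference was 0.16 for the 3 P-TEFb genes, 0.04 for the 5 shared subunits, 0.01 for elongation and pausing genes, -0.01 for the 7 subunits of polymerase II alone, -0.01 for initiation factors and -0.02 for TFIIH. Within every group of role some genes were higher and others lower on array 1.

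**Figure D3:**
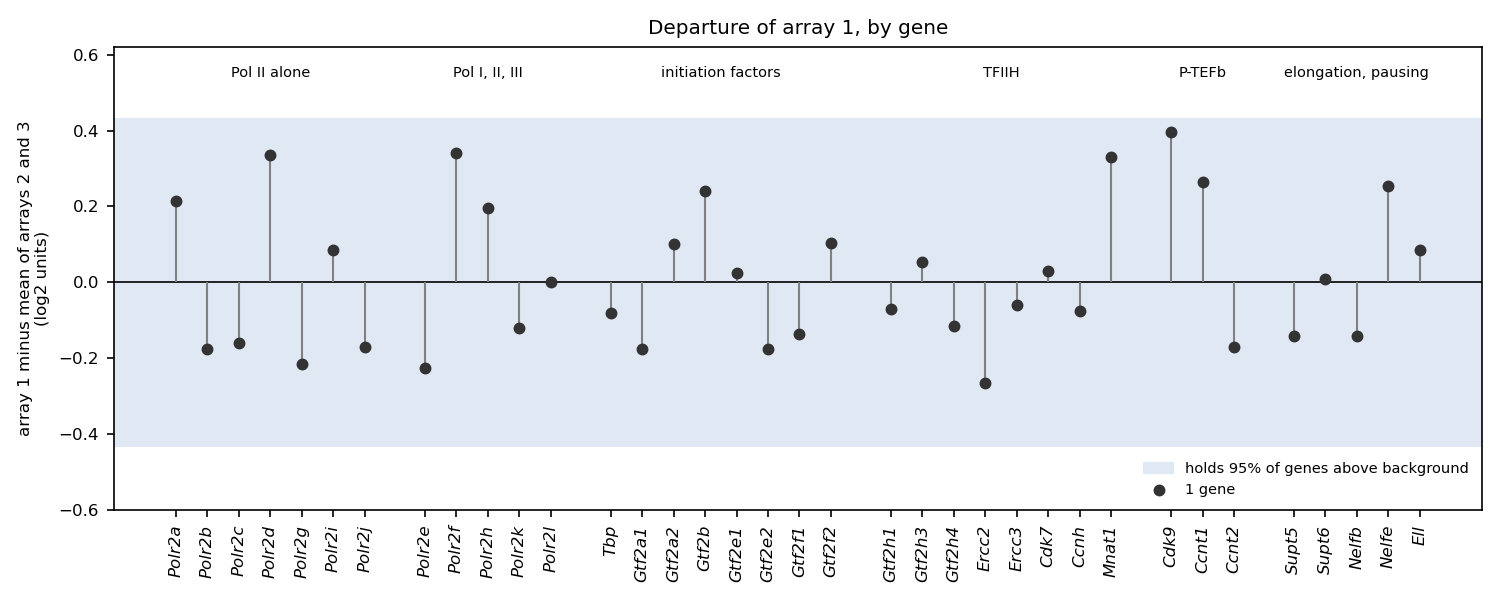
Value on array 1 minus the mean of arrays 2 and 3 (y axis, log2 units) for each of the 36 genes, grouped by role, with a shaded band that holds 95% of genes above background (±0.43). All 36 points lie within the band, from -0.27 for Ercc2 to 0.40 for Cdk9.

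The rest of the polymerase II machinery, given by 6 lists chosen by role, was detected as broadly, with 73 of 74 measured genes above background. All 14 TFIID TAF genes were, among them Taf1 with 9.54, 9.57 and 9.50, Taf2 with 9.44, 9.39 and 9.43, Taf3 with 9.46, 9.42 and 9.24 and Taf4 with 9.80, 10.02 and 9.94 on arrays 1, 2 and 3. All 32 Mediator genes were, and Mediator relays signals from DNA-bound activators to the polymerase. Med1 had 10.08, 10.02 and 9.93, and Med7 had 7.37, 7.89 and 7.90, just above the limit on array 1. Med21, chosen after its values were seen, had 8.51, 7.94 and 8.08, the widest span of the Mediator list at 0.57. All 8 measured PAF1 complex, FACT and Iws1 genes and all 6 CTD kinase and phosphatase genes were above background, with Cdk12 at 9.88, 9.76 and 9.84 and Cdk13 at 10.12, 10.08 and 10.13. The median level over the 74 genes was 9.30. Of the 74, 4 had an unadjusted p under 0.05 in the variance test, while 4.66% of all probe sets did, with 0 of the 74 past the adjustment (limma). Ssrp1 and Supt4a were not analysed here.

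Paralogs of these factors that are known mainly from germ cells or single tissues were detected in part. Of 14, 3 were above background on all arrays, 2 on some and 9 (64.3%) on none, and 54.2% of all genes were above it on none. Tbpl2, the oocyte relative of TBP, had 3.81, 3.62 and 3.87 on arrays 1, 2 and 3. Gtf2a1l, the testis form of the large TFIIA subunit, had 5.51, 5.68 and 5.79, and Taf7l, a testis TAF, had 4.22, 4.18 and 4.16. The bromodomain gene Brdt of the testis (6.76, 6.91 and 6.73), Ell3 (5.72, 5.77 and 5.99), Tcea2 (6.50, 6.61 and 6.55), Tcea3 (6.38, 6.50 and 6.50), Eaf2 (6.23, 6.02 and 6.07) and Aff2 (4.81, 4.72 and 4.60) were also below on every array. Those above throughout were Tbpl1, a TBP relative needed in spermatogenesis, with 9.49, 9.40 and 9.44, Aff3, a nuclear factor also known from lymphoid cells, with 10.28, 10.11 and 10.28, and Med12l with 7.54, 7.56 and 7.47. Taf4b, a gonadal TAF also known from B cells, had 7.93, 7.13 and 7.36, and Hexim2, the relative of Hexim1, had 7.63, 7.16 and 7.36. Each of these 2 genes was above the limit on arrays 1 and 3 only, so the count was 5 without array 2, and likewise 5 with the limit at the median of the other-organ genes plus 1. It was 2 with the 99th percentile as the limit.

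**Figure D4:**
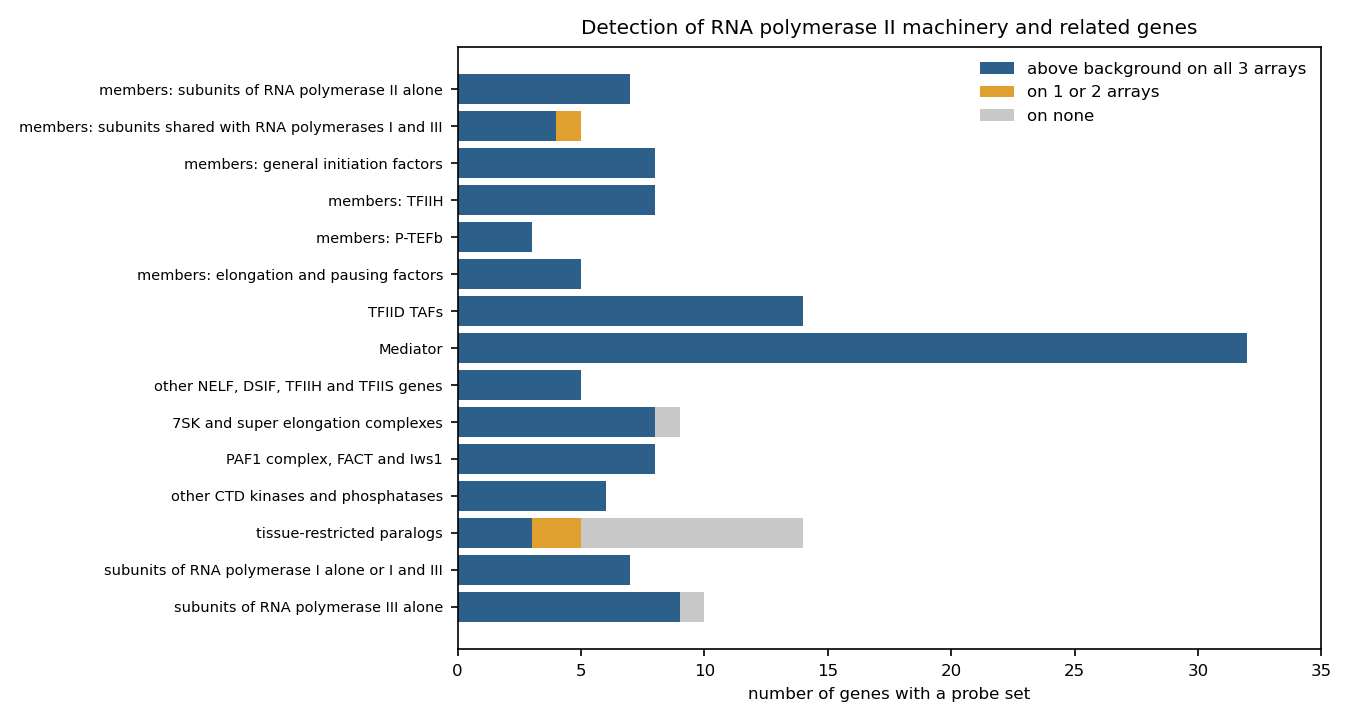
Number of genes with a probe set (x axis) in each list, split into those above background on all 3 arrays, on 1 or 2 arrays and on none. The machinery and its related complexes are above background nearly throughout. Of the 14 paralogs labelled tissue-restricted, 9 are above it on no array, as are 54.2% of all genes.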

How the data were processed

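Expression was measured in 3 DP thymocyte samples, and the table deposited by the authors holds log2 expression, with 1 value for a probe set on each array, a unit read from their range (1.6 to 14.94). Per the submitters' processing notes the R package affy was used. The sources used here name neither the background correction and normalization settings nor the build. The sorted values of any pair of arrays differed by at most 0.15, so a global change in RNA content would not be visible. The labels' protocols also describe formaldehyde fixation without stating if it applied to the RNA samples.

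Gene names came from the platform table, and the 36 symbols were the same in RefSeq through gene IDs. Of 35556 probe sets, 6617 numbered below the first annotated one were left out as controls. The background limit used 78 of 90 listed other-organ genes, of which 3 exceeded it on all arrays. Variances were tested with limma 3.58.1 in R 4.3.3 (intercept-only fit, robust mean-dependent prior, Benjamini-Hochberg adjustment over 28939 probe sets), and the procedure was tested on simulated data. Python 3.11.15 with pandas 2.3.3 and numpy 2.4.6 served for the rest. The 1.5-fold span stands in for a test, since each cohort has 1 array.

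All 37 genes are named. Of other lists, names were drawn from those on the minority side of the limit if no more than 5 and the first genes in list order (at most 4), and paralogs were given in full. The genes and lists were chosen with earlier results of these data known. Alternatives were other normalizations, limits, priors and representations of a gene, and leaving out each array. The number of arrays limits the precision.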

Additional observations from a re-analysis of the deposited data

How the results depend on the processing

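The count of 35 genes above background on all arrays ranged from 35 to 36 when each array was left out in turn, and over the other limits, normalizations and the mean of a gene's probe sets, with Polr2k as the only gene that changed side. The related count of 73 stayed at 73 except with the 99th percentile, where it was 70. None of the 36 genes spanned 1.5-fold or passed the variance test under any alternative run, and the smallest adjusted p among them was 0.914 to 0.989 (limma). The mean difference of array 1 was 0.0111 and became -0.00252 with quantile normalization and 0.0261 with median centring, all within 0.03 of 0, and it was 0.00194 without array 2 and 0.0203 without array 3. The median level was 9.32 to 9.40 with an array left out, and 9.28 with the mean of a gene's probe sets, which includes the dimmer ones by construction. The sign of the array 1 difference was the same in all 5 alternatives for 32 of 36 genes, the others being Polr2l, Gtf2e1, Cdk7 and Supt6. Probe sets called over the whole array numbered 6, against 18 without array 1, and 0 with no trend in the prior or when only probe sets above background were tested. An alternative list of other-organ genes was not run, since no second list was used. No paired analysis was possible because there is 1 group. Signal over background limits the call of a gene at the limit, such as Polr2k.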

Other observations

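The subunits that belong to the other nuclear polymerases were detected as well. All 7 measured genes of polymerase I, alone or shared with III, lay above background on every array, and 6 of the 7 were higher on array 1 than the mean of arrays 2 and 3, by 0.15 log2 units on average over the 7. Among genes above background 48.7% were higher on array 1 and 50.0% lower. Polr1a, the largest subunit of polymerase I, had 8.43, 8.25 and 8.28 on arrays 1, 2 and 3, and Polr1b, the second-largest, had 8.58, 8.09 and 8.25. Of 10 measured genes of polymerase III alone, 9 lay above background and 8 were lower on array 1, by 0.09 on average over the 10 (mean difference -0.09, median -0.04). Polr3a had 9.17, 9.18 and 9.15. Crcp, chosen after its values were seen, had 8.27, 8.61 and 8.68, the largest difference of the list at -0.375. Polr3g, which is known mainly from stem cells, had 6.98, 6.98 and 7.05, below background on every array, and its paralog Polr3gl, also chosen after its values were seen, had 8.45, 8.51 and 8.53. None of these genes passed the variance test (limma, adjusted p from 0.988), and the difference between the polymerase I and III lists was not tested.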
